A study of Mus musculus with 6 samples.

Results

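The acute phase protein genes are 10 hepatic genes, Saa1, Saa2, Saa4, Orm1, Orm2, Serpina3n, Lcn2, Hp, Apcs and Fgl1, taken by symbol from the 15953 genes of the deposited table. All 10 members were in the table, and all 10 passed the filter on low counts that left 12033 genes for testing. Their messenger RNA was measured by RNA sequencing in 6 mouse livers of the C57BL/6 strain, 3 labelled as Cgref1 knockout (Cgref1 KO) and 3 as wild type. The labels give no age, sex, diet, time of sampling or position of the deletion. The labels call the samples biological replicates but do not say how they were obtained, so the p-values measure the spread between these samples.

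The acute phase response is the change in plasma proteins that follows infection or injury. Interleukin-6, interleukin-1 and tumour necrosis factor, released by macrophages and other cells, act on hepatocytes through the transcription factors STAT3, NF-kB and C/EBP beta, and glucocorticoids strengthen the effect. In mice the serum amyloid A genes Saa1 and Saa2, the lipocalin gene Lcn2 and the orosomucoid genes are strongly inducible in this way, whereas Saa4 is the constitutive serum amyloid A gene.

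Library totals were between 17627734 and 18366443 expected counts. Cgref1 had 7, 12 and 10 counts in knockout-labelled replicates 1, 2 and 3, against 7, 7 and 19 counts in wild type replicates 1, 2 and 3. A loss of the targeted transcript was therefore not seen, but no library held more than 19 counts. The edgeR log2 fold change of Cgref1 was -0.11 (SE 0.50, 95% interval -1.23 to 1.01). At this level a partial loss could not be told from no change. The libraries are called knockout-labelled below. The labels name both liver tissue and hepatocytes. Alb, the serum albumin gene and a hepatocyte marker, stood at 50724 to 69493 CPM (counts scaled to library size with TMM factors) in knockout-labelled and 51051 to 80697 CPM in wild type libraries. The 14 Kupffer cell markers, genes of the resident liver macrophages, summed to 498.6 to 550.8 CPM in knockout-labelled and 447.1 to 482.9 CPM in wild type libraries, so RNA of other liver cells was present. In such bulk samples fewer cells of a type and less RNA per cell cannot be told apart.

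The Saa1 and Saa2 reading frames are shown because reads from them are hard to separate. In the GENCODE M21 transcripts (GRCm38) both are 369 bases long and 351 bases, or 95.1%, are identical, with 73 bases as the longest identical run. All 18 bases that differ lie within coding bases 67 to 366 on chromosome 7, shown here on the strand of each gene with the differing bases in capitals.
Saa1 coding bases: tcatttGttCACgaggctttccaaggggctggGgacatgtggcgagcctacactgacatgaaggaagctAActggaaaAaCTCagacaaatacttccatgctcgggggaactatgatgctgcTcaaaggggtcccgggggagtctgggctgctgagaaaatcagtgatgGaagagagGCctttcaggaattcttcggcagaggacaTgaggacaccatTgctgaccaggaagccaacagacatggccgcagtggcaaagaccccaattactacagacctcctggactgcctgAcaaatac
Saa2 coding bases: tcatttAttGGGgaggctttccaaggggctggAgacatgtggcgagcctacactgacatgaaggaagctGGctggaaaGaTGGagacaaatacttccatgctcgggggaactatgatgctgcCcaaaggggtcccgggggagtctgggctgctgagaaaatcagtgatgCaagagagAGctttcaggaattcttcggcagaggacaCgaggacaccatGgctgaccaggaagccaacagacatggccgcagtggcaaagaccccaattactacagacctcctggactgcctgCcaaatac
The Saa4 reading frame shares 65.2% with that of Saa1 in an alignment with gaps, and its longest run identical to Saa1 is 15 bases. Orm1 and Orm2 share 89.9% of their 624 coding bases, with an identical run of 104 bases. The submitters' processing notes name RSEM, and the deposited values are expected counts. No label or header gives the settings by which reads that match both genes of a pair were divided. Single values of Saa1, Saa2, Orm1, Orm2 and Orm3 are therefore uncertain, and the summed values are given beside them.

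Promoter windows are shown for the serum amyloid A members and for the other members with a RefSeq window (GRCm38.p6) whose groups did not overlap in CPM. Each window holds 250 bases before and 50 bases after the annotated start, and 7 of the 10 members had one. Motifs known for acute phase factors were searched on both strands: TTNNGNAA for C/EBP, TTCNNNGAA for STAT, and for NF-kB the letters GGG and TTTCC with any 2 bases between them. Capitals mark the matches, none of which overlapped another.
Saa1 promoter: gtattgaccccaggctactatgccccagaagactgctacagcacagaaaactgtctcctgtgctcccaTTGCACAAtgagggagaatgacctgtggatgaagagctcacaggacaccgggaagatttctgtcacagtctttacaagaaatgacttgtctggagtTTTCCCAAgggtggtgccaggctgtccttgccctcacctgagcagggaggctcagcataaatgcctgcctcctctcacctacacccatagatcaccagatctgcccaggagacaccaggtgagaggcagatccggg
Saa2 promoter: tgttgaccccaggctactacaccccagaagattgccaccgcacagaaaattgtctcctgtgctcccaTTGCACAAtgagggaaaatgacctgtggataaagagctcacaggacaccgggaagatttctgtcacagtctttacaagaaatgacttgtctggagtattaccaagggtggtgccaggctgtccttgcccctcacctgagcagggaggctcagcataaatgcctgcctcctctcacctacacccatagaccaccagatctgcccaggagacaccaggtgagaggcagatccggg
Saa4 promoter: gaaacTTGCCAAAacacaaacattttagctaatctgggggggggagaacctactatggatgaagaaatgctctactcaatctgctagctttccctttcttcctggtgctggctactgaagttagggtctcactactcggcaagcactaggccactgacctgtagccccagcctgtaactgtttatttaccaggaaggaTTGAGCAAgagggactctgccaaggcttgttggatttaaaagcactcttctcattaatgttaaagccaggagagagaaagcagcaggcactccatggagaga
Orm2 promoter: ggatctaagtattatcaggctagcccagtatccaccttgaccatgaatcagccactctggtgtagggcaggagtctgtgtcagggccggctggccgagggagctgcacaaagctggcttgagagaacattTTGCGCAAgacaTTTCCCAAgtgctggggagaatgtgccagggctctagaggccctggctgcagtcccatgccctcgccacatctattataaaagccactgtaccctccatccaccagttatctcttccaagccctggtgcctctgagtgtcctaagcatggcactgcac
Serpina3n promoter: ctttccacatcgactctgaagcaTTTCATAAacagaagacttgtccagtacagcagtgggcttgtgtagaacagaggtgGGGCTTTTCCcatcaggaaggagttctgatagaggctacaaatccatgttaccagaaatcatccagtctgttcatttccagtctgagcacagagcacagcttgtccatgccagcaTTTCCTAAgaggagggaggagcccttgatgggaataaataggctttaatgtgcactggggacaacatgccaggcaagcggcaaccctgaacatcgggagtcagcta
Lcn2 promoter: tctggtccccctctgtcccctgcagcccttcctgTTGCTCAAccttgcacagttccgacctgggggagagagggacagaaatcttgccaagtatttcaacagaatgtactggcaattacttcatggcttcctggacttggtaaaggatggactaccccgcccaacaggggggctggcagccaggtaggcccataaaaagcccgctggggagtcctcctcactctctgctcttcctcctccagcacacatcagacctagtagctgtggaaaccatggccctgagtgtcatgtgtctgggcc
The windows lie at chr7:46742931-46743230 on the minus strand (Saa1), chr7:46751583-46751882 on the plus strand (Saa2), chr7:46732554-46732853 on the minus strand (Saa4), chr4:63362199-63362498 on the plus strand (Orm2), chr12:104406458-104406757 on the plus strand (Serpina3n) and chr2:32387690-32387989 on the minus strand (Lcn2). The C/EBP motif was found in 6 of the 7 member windows, against 40.7% of all 32851 windows. The NF-kB motif was found in 1 member window, that of Serpina3n, against 1.6% of all windows, and the STAT motif in 1, that of Apcs, against 8.3%. Only this form of the NF-kB motif was searched, so a window without it may hold another form. Saa1 and Saa2 shared the C/EBP match TTGCACAA, which began at position -182 from the start in Saa1 and at -183 in Saa2. The Saa1 window held another, TTTCCCAA, at -86, and the same letters stood at -108 in the Orm2 window. These matches describe the letters of the windows and not sites of binding.

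Across the 10 members, 9 had a higher mean level in the knockout-labelled livers than in wild type livers, against 49.5% of all genes tested with a positive log2 fold change. No member passed the edgeR threshold over all genes (0 of 10, adjusted p 0.739 to 0.988), where 1 of 12033 genes, or 0.00831%, was called, and DESeq2 called 0 members and 28 genes, or 0.233%. At an unadjusted edgeR p under 0.05, 6 members were higher, Lcn2, Saa1, Orm2, Saa4, Hp and Serpina3n, and 0 were lower, against 2.95% of all genes higher and 2.20% lower. Of all genes at that p, 57.3% were higher, but 17.1% when counts were scaled by library totals and 9.7% in log2(TPM + 1). In 5 members, Lcn2, Saa1, Orm2, Hp and Serpina3n, every knockout-labelled library lay above every wild type library in CPM, against 6.19% of all genes, and in 0 members every one lay below, against 4.63%. The median log2 fold change of the 10 members was 0.46 and that of all genes tested 0.00. The 9 inducible members had a median of 0.46 and Saa4, the only constitutive one, had 0.54. The counts depended on the scaling. With library totals, upper-quartile factors or FPKM the groups of 4 members did not overlap, Saa1 being lost, against 2.28%, 5.35% and 2.18% of all genes. TPM allows for transcript length, as FPKM does, but scales the libraries otherwise. In TPM the groups of only 2 members, Orm2 and Lcn2, did not overlap, against 1.44% of all genes. By limma on log2(TPM + 1), 3 members, Orm2, Serpina3n and Lcn2, were higher at an unadjusted p under 0.05, against 0.939% of all genes. TPM also moved the median of all genes to -0.11, and the members' median of 0.31 lay 0.42 above it.

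**Figure D1:**
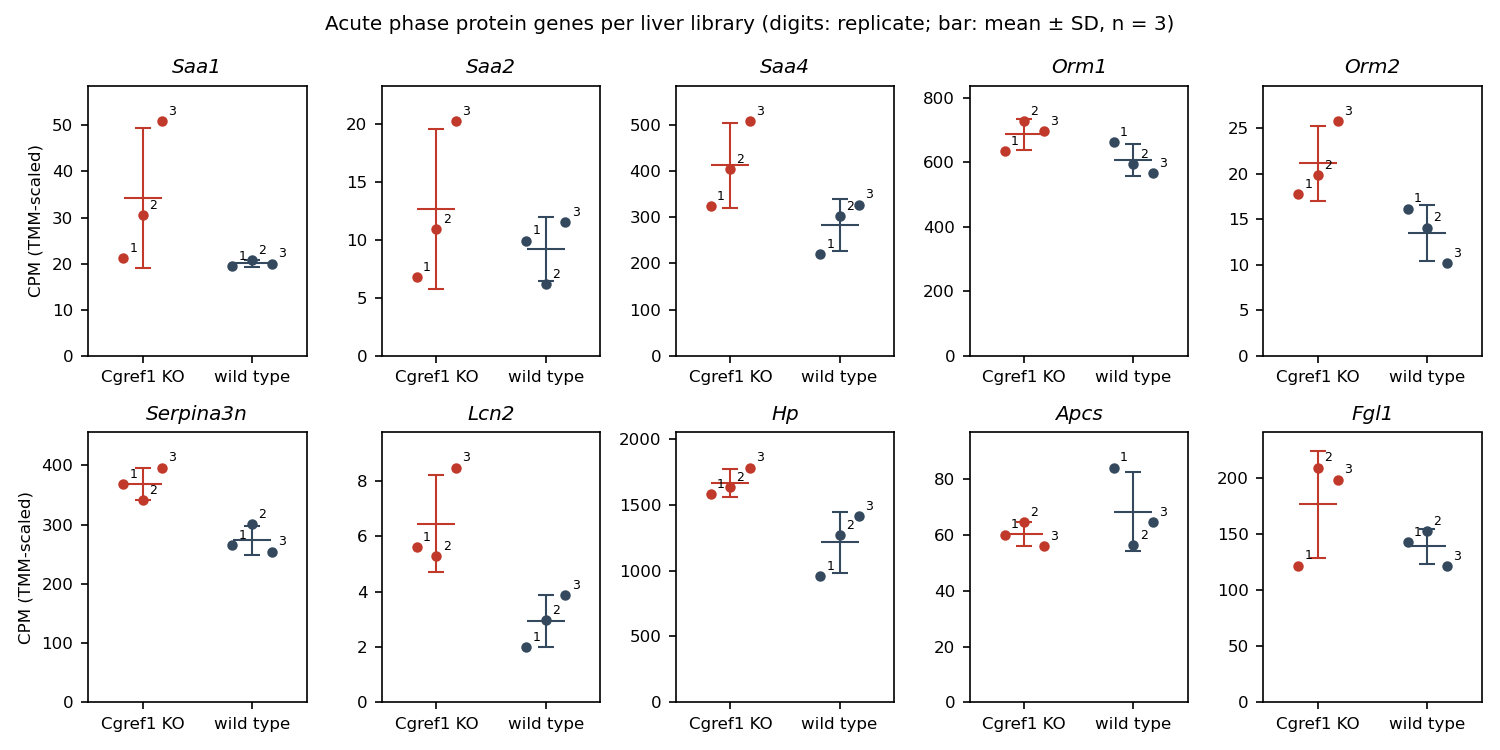
CPM (TMM-scaled) of each of the 10 acute phase protein genes in the 3 liver libraries labelled Cgref1 KO and the 3 labelled wild type; dots are libraries marked with their replicate number, and bars give the mean ± SD (n = 3). All 3 knockout-labelled libraries lie above the wild type libraries for Saa1, Orm2, Serpina3n, Lcn2 and Hp, and knockout-labelled replicate 3 is the highest library in 7 of the 10 genes.

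Levels differed widely between members when set per transcript length. Hp stood first with 1812 ± 113.8 TPM in knockout-labelled and 1455 ± 298.0 TPM in wild type livers (SD, n = 3), followed by Orm1 with 1432 ± 44.1 TPM in knockout-labelled and 1396 ± 97.3 TPM in wild type livers. The ranges of these 2 genes over the 6 libraries overlapped, and both lay above those of all other members. Saa4, Serpina3n and Fgl1 followed, between 162.7 and 348.6 TPM in single libraries, each overlapping its neighbour in the order. Apcs, Saa1, Orm2 and Saa2 came next, each again overlapping its neighbour, and Lcn2 was the lowest at 4.02 to 15.8 TPM. Constitutive Saa4, with 282.4 ± 60.0 TPM in knockout-labelled and 214.4 ± 45.9 TPM in wild type livers, thus stood above inducible Saa1, with 86.1 ± 36.7 TPM in knockout-labelled and 56.2 ± 2.40 TPM in wild type livers, in each of the 6 libraries.

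**Figure D2:**
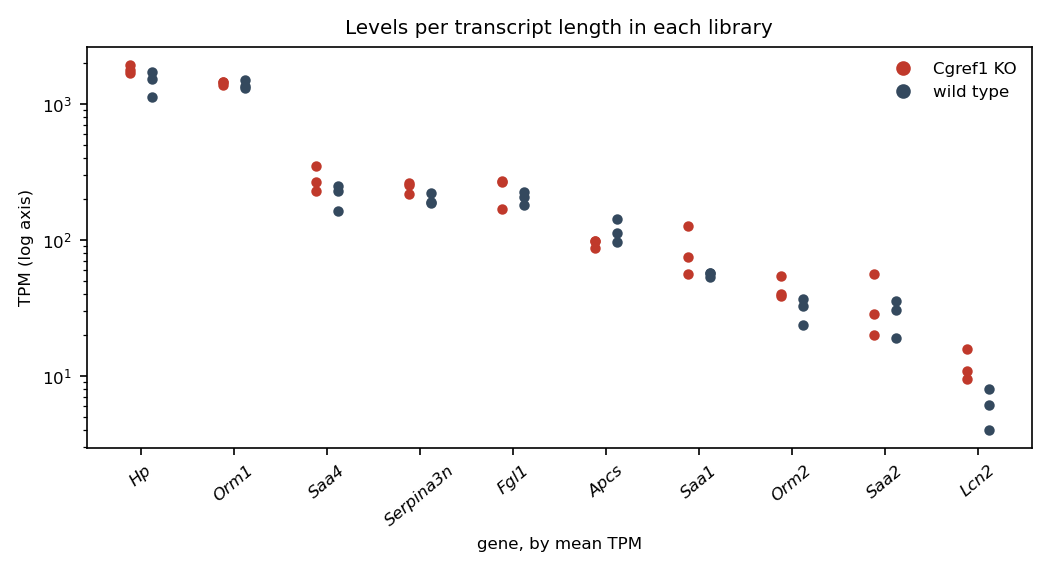
TPM (log axis) of the 10 genes in each library, ordered by mean TPM, with Cgref1 KO at the left and wild type at the right of each gene. Hp and Orm1 lie at or above 1128 TPM in every library, and Lcn2 stays at or under 15.8 TPM.

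Saa1 encodes an apolipoprotein of high-density lipoprotein that is made in large amounts during inflammation, and its gene spans positions 46740497 to 46743071 of chromosome 7 (GRCm38, minus strand). It had 21.2, 30.6 and 50.9 CPM in knockout-labelled replicates 1, 2 and 3, against 19.4, 20.8 and 20.0 CPM in wild type replicates 1, 2 and 3. The wild type libraries lay close together, and the knockout-labelled ones ran from just above them to more than 2-fold higher. The log2 fold change was 0.77 (SE 0.30, 95% interval 0.04 to 1.51), with an edgeR adjusted p of 0.944. Without knockout-labelled replicate 3 it was 0.37, and in TPM the groups overlapped, with 56.0 TPM in knockout-labelled replicate 1 and 57.7 TPM in wild type replicate 2.

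Saa2, the paralog of Saa1 that lies on the opposite strand (46751769 to 46754314), had 6.76, 10.9 and 20.2 CPM in the knockout-labelled livers, against 9.93, 6.16 and 11.5 CPM in the wild type livers. Here the groups overlapped, since only knockout-labelled replicate 3 lay above the wild type range. Its log2 fold change of 0.46 (SE 0.44, 95% interval -0.62 to 1.54, edgeR adjusted p 0.988) turned to -0.06 without that library. Summed to a single feature, the pair had 27.9, 41.5 and 71.1 CPM in knockout-labelled and 29.3, 27.0 and 31.5 CPM in wild type livers. The sum overlapped between the groups and gave 0.68 on the log2 scale (SE 0.34, 95% interval -0.16 to 1.52, edgeR adjusted p 0.974). Without knockout-labelled replicate 3 it was 0.25. The share of the pair's counts assigned to Saa1 was 75.8% (Wilson 95% interval 71.8 to 79.4), 73.8% (70.5 to 76.9) and 71.6% (69.1 to 74) in knockout-labelled replicates 1, 2 and 3. In wild type replicates 1, 2 and 3 it was 66.1% (62 to 70), 77.2% (73.3 to 80.6) and 63.4% (59.4 to 67.3). The intervals cover counting error only. Wild type replicates 1 and 3 held the smallest Saa1 shares, while wild type replicate 2 held the largest.

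Saa4, the constitutive member of the family (chromosome 7, 46727998 to 46732543), had 323.5, 404.5 and 507.5 CPM in knockout-labelled livers, against 219.8, 302.8 and 327.3 CPM in wild type livers. Knockout-labelled replicate 1 lay just within the wild type range and the other two above it. The log2 fold change was 0.54 (SE 0.19, 95% interval 0.09 to 0.98, edgeR adjusted p 0.918), and 0.36 and 0.38 without knockout-labelled replicate 3 and wild type replicate 1 in turn. The interval of the constitutive gene lay within that of inducible Saa1, and a difference between their changes was not tested. Saa3, a mouse family member known mainly from macrophages and fat and not among the 10, had 1.98 to 2.62 CPM in knockout-labelled and 1.97 to 3.22 CPM in wild type livers (log2 fold change -0.01, SE 0.27).

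Orm1 and Orm2 encode alpha-1-acid glycoproteins, plasma lipocalins that bind drugs and lipids. Orm1 (chromosome 4, 63344556 to 63354051) had 633.8, 726.7 and 696.8 CPM in knockout-labelled and 661.8, 593.6 and 565.3 CPM in wild type livers. Wild type replicate 1 lay above knockout-labelled replicate 1, so the groups overlapped, and the log2 fold change was 0.18 (SE 0.11, 95% interval -0.06 to 0.41, edgeR adjusted p 0.974). Orm2 (chromosome 4, 63362449 to 63365877) had 17.8, 19.9 and 25.8 CPM in knockout-labelled livers, against 16.2, 14.1 and 10.2 CPM in wild type livers. Its groups did not overlap, in CPM or in TPM, and the log2 fold change was 0.65 (SE 0.20, 95% interval 0.21 to 1.09, edgeR adjusted p 0.85). Orm3, which is not a member, lies between these genes and had 4.49, 6.28 and 6.89 CPM in knockout-labelled and 4.36, 3.51 and 2.02 CPM in wild type livers, again without overlap in CPM (log2 fold change 0.84, SE 0.28). Orm1 held 96.4% to 97.3% of the joint Orm1 and Orm2 counts in the knockout-labelled libraries and 97.6% to 98.2% in the wild type libraries. The sum of all 3 genes therefore followed Orm1, with a log2 fold change of 0.19 (SE 0.11, 95% interval -0.05 to 0.43, edgeR adjusted p 0.974).

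Serpina3n encodes a serine protease inhibitor, one of the mouse relatives of human alpha-1-antichymotrypsin, and lies on chromosome 12 (104406698 to 104414334). It had 368.6, 341.0 and 395.9 CPM in knockout-labelled livers, against 265.6, 300.9 and 254.4 CPM in wild type livers. No library of one group reached the range of the other in CPM, and the SD was 27.5 CPM in knockout-labelled and 24.3 CPM in wild type livers (n = 3 each). The log2 fold change of 0.43 (SE 0.11, 95% interval 0.19 to 0.67) had an edgeR adjusted p of 0.739 and ranked 36th of the 12033 genes by p. The q-value in the authors' deposited table was 0.144. The log2 fold change ran from 0.38 to 0.51 when single libraries were left out. The table held 9 Serpina3 genes, of which 5 were tested. Serpina3k, the most abundant of them at 11981 ± 1409 CPM in knockout-labelled and 8931 ± 72.6 CPM in wild type livers (SD, n = 3), differed by 0.42 on the log2 scale (SE 0.12), and the values of Serpina3m, Serpina3f and Serpina3g were -0.11, -0.13 and 0.30.

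Lcn2 encodes a lipocalin that binds bacterial siderophores and so withholds iron, and lies on chromosome 2 (32384637 to 32387739). It was counted 96, 91 and 154 times in knockout-labelled libraries and 36, 56 and 71 times in wild type libraries. This gave 5.60, 5.29 and 8.48 CPM in knockout-labelled livers, against 1.99, 2.98 and 3.87 CPM in wild type livers. All knockout-labelled libraries lay above all wild type libraries, in TPM as well. With a log2 fold change of 1.13 (SE 0.28, 95% interval 0.51 to 1.75, 2.19-fold), it was the only member with a fold of at least 2. Its edgeR adjusted p was 0.739, it ranked 33rd by p, and the q-value in the authors' deposited table was 0.113. Neutrophils and intestinal epithelium can also express Lcn2. Of 14 neutrophil markers 11 stayed below 1 CPM in every library, and the list summed to 3.14 to 4.55 CPM in knockout-labelled and 3.06 to 5.53 CPM in wild type libraries, with Ly6g at 0 in each knockout-labelled library and at most 0.109 CPM in a wild type library. The 18 intestinal markers summed to 65.7 to 85.5 CPM in knockout-labelled libraries and to 135.4, 77.3 and 139.7 CPM in wild type replicates 1, 2 and 3. Fabp2 alone gave 73.4 of the 76.8 CPM in knockout-labelled replicate 1 and 121.6 of the 135.4 CPM in wild type replicate 1. Reg3b, Reg3g, Sis, Zg16, Krt20, Cdh17 and Muc2 were at 0 in each knockout-labelled library. In wild type replicates 1, 2 and 3 Reg3b had 2.43, 0 and 1.75 CPM and Zg16 had 1.05, 0.213 and 3.44 CPM. Sis had 1.82, 0.106 and 0.327 CPM there. Each of the genes at 0 was lower in wild type replicate 2 than in wild type replicates 1 and 3. Other markers were found in the knockout-labelled libraries. Lgals4 stood at 1.32 to 2.27 CPM in knockout-labelled and 1.82 to 4.09 CPM in wild type libraries. Tff3 had 0.583, 2.03 and 3.19 CPM in knockout-labelled and 0.662, 0.744 and 1.58 CPM in wild type livers (log2 fold change 0.96, SE 0.59). A part of these cells in the Lcn2 values was not tested.

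Hp encodes haptoglobin, the plasma protein that captures free haemoglobin, and lies on chromosome 8 (109575128 to 109579172). It had 1580, 1634 and 1780 CPM in knockout-labelled livers, against 960.3, 1267 and 1414 CPM in wild type livers. The groups did not overlap in CPM, with wild type replicate 1 the farthest below. The log2 fold change was 0.46 (SE 0.15, 95% interval 0.13 to 0.78, edgeR adjusted p 0.868), and 0.31 without wild type replicate 1. In TPM knockout-labelled replicate 2, at 1709, and wild type replicate 3, at 1712, overlapped.

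Apcs encodes serum amyloid P, a pentraxin that is a major acute phase protein in mice, and lies on chromosome 1 (172893961 to 172895054). It was the only member with a lower mean in the knockout-labelled livers, at 60.2, 64.8 and 56.2 CPM, against 84.2, 56.4 and 64.8 CPM in wild type livers. The knockout-labelled values lay among the lower wild type values, and wild type replicate 1 stood above all other libraries. The log2 fold change was -0.18 (SE 0.14, 95% interval -0.50 to 0.14, edgeR adjusted p 0.984), and -0.01 without wild type replicate 1. Fgl1, a secreted fibrinogen-like protein of hepatocytes that is also a ligand of the immune checkpoint receptor LAG-3, lies on chromosome 8 (41191434 to 41217984). It had 121.6, 208.8 and 198.2 CPM in knockout-labelled livers, against 142.6, 152.1 and 121.5 CPM in wild type livers. Knockout-labelled replicate 1 stood level with the lowest wild type library and the other two above the wild type range, and the log2 fold change was 0.34 (SE 0.20, 95% interval -0.11 to 0.80, edgeR adjusted p 0.974), or 0.55 without knockout-labelled replicate 1 and 0.21 without knockout-labelled replicate 2.

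**Figure D3:**
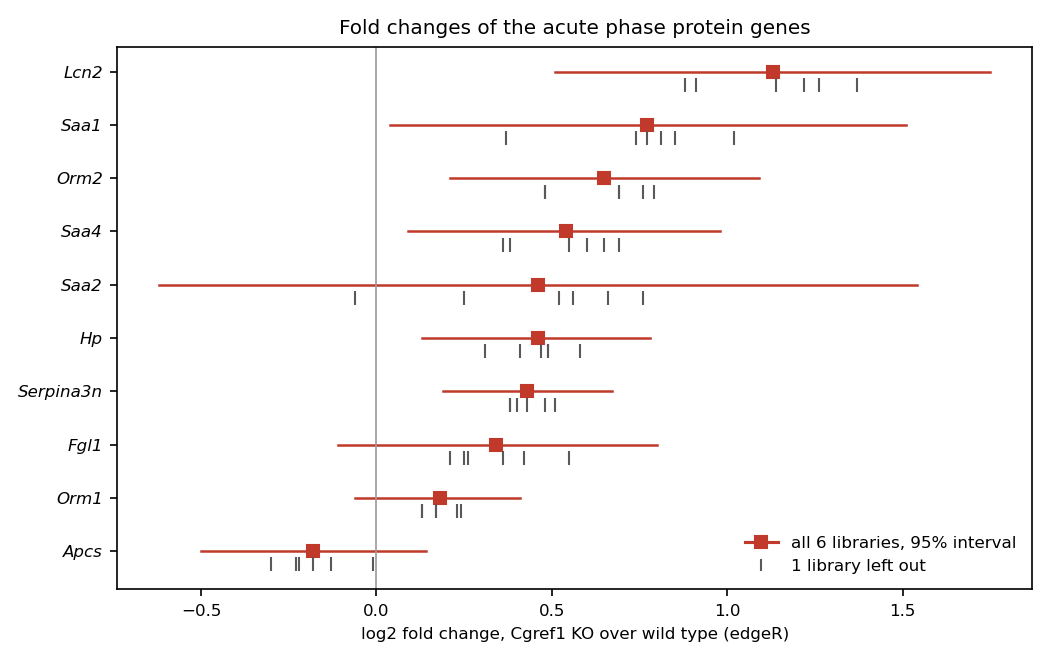
Log2 fold changes of the 10 genes, Cgref1 KO over wild type, from edgeR with 95% intervals (squares and lines, all 6 libraries), and the values with 1 library left out (grey ticks). The intervals of Lcn2, Saa1, Orm2, Saa4, Hp and Serpina3n lie above 0, and Saa2 crosses 0 when knockout-labelled replicate 3 is left out.

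The members did not vary in the same way across libraries. Knockout-labelled replicate 3 was the highest library for 7 of the 10 members, against 18.4% of all genes tested, and the exceptions were Orm1 and Fgl1, highest in knockout-labelled replicate 2, and Apcs, highest in wild type replicate 1. Wild type replicates 1 and 3 were each the lowest library for 4 members, against 24.1% and 16.6% of all genes. Knockout-labelled replicates 1, 2 and 3 exceeded the whole wild type range in 5, 8 and 9 members. The share of all genes doing so was not computed, so these counts cannot be read as particular to the members. Saa1 and Saa2 spread most in the knockout-labelled group, from -0.26 to 0.99 and from -0.55 to 0.96 on the centred log2 scale, whereas Serpina3n and Hp spread from 0.11 to 0.32 and from 0.16 to 0.33. Without knockout-labelled replicate 3, 4 members, Orm2, Serpina3n, Lcn2 and Hp, were higher at an unadjusted edgeR p under 0.05, against 1.72% of all genes.

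**Figure D4:**
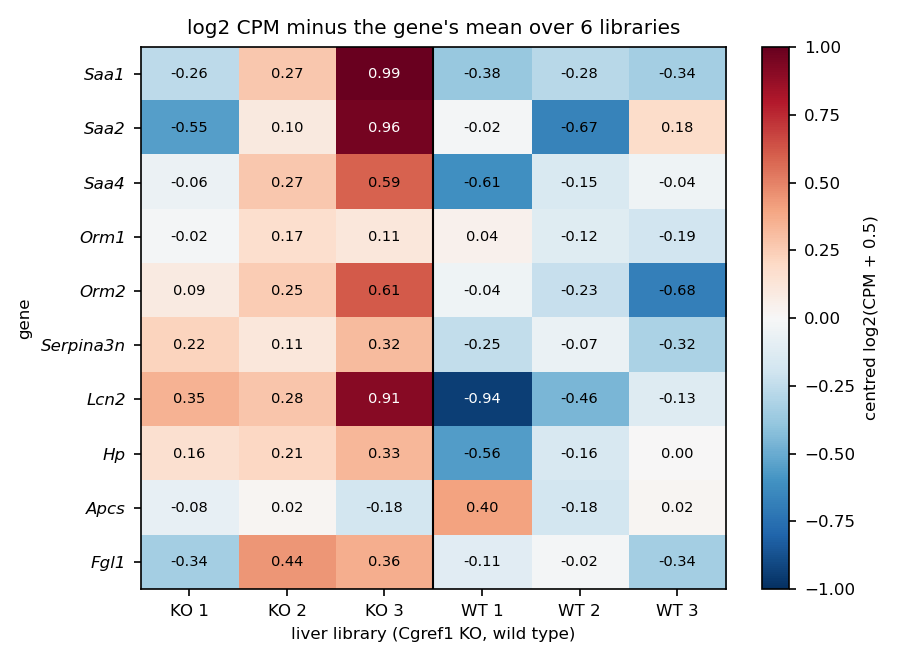
Log2(CPM + 0.5) of each gene minus its mean over the 6 libraries, with Cgref1 KO libraries at the left of the line and wild type libraries at the right. Saa1, Saa2 and Lcn2 are highest in KO replicate 3 (0.99, 0.96 and 0.91), and Apcs is highest in wild type replicate 1 (0.40).

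The genes closest to the mean profile of Saa1 and Saa2 were found by the root-mean-square difference of centred log2(CPM + 0.5) over the 6 libraries. Ccnd1, the cyclin D1 gene, was closest with a difference of 0.10, followed by Abtb2 (0.16), Gm41885 (0.16), Ahcyl2 (0.17) and Ankrd33b (0.17), of 12033 genes compared. Among the other members Saa4 came nearest, at rank 113 with 0.30, and Apcs was the farthest, at rank 8698 with 0.57. With so many genes and only 6 libraries, close matches are given as a description.

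Other genes of the acute phase response were read from lists written with earlier results of these data known. Of 30 other positive acute phase genes tested, 18 had a positive log2 fold change and 0 passed the edgeR threshold. At an unadjusted edgeR p under 0.05, 4 were higher and 1 lower, against 2.95% and 2.20% of all genes. In CPM the groups of 6 did not overlap with the knockout-labelled higher, and of 2 with it lower, against 6.19% and 4.63% of all genes. The median of the 30 genes was 0.07, beside 0.00 for all genes. With library totals it was -0.01, beside -0.08 for all genes, and in log2(TPM + 1) it was -0.06, beside -0.11. Lrg1, a leucine-rich glycoprotein gene, had 345.5, 433.2 and 527.6 CPM in knockout-labelled and 216.4, 318.0 and 248.3 CPM in wild type livers (log2 fold change 0.74, SE 0.18). Hamp, the hepcidin gene, had 474.7, 353.7 and 331.7 CPM in knockout-labelled and 517.3, 713.6 and 644.3 CPM in wild type livers (-0.69, SE 0.16). Lrg1 was thus higher and Hamp lower in every knockout-labelled library than in every wild type library. Fga, Fgb and Fgg, which encode the fibrinogen chains, had log2 fold changes of 0.03, -0.06 and -0.01 (SE 0.11, 0.15 and 0.15), and that of Fga was -0.05 with library totals, where the median of all genes was -0.08.

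Of 16 negative acute phase genes, whose level drops in inflammation, 8 were positive and 8 negative, with 0 past the edgeR threshold and a median of 0.02, beside 0.00 for all genes. With library totals this median was -0.07, beside -0.08 for all genes, and in log2(TPM + 1) it was -0.12, beside -0.11. At an unadjusted edgeR p under 0.05, 2 were higher (Apoa1 and Apoa4) and 1 lower (Serpina7), against 2.95% and 2.20% of all genes. In CPM the groups of 5 did not overlap with the knockout-labelled higher, and of 1 with it lower, against 6.19% and 4.63% of all genes. Apoa4, an apolipoprotein gene, had 80.4 ± 17.7 CPM in knockout-labelled and 48.7 ± 8.59 CPM in wild type livers (SD, n = 3), and Alb, at 58467 ± 9806 CPM in knockout-labelled and 67242 ± 15011 CPM in wild type livers, differed by -0.20 on the log2 scale (SE 0.19).

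Most ligands that induce the response were near the limit of detection. The table held 10 ligand genes, 6 of them below 1 CPM in every library, and 4 were tested, 0 of them at an unadjusted edgeR p under 0.05. Il6 was at 0 in each knockout-labelled library and at most 0.0552 CPM in a wild type library. Among 14 receptor and adaptor genes 11 were positive with a median of 0.09 (7 with library totals and a median of 0.01, beside -0.08 for all genes). At an unadjusted edgeR p under 0.05, 2 were higher, against 2.95% of all genes. These were Lifr, a receptor of the interleukin-6 family of cytokines, at 340.6 ± 63.9 CPM in knockout-labelled and 226.3 ± 39.5 CPM in wild type livers, and Il1r1, the interleukin-1 receptor gene, at 38.7 ± 8.58 CPM in knockout-labelled and 22.3 ± 6.31 CPM in wild type livers (SD, n = 3). Il6ra, the interleukin-6 receptor gene, had 30.3, 22.6 and 26.8 CPM in knockout-labelled and 7.45, 20.2 and 24.6 CPM in wild type livers, which overlapped.

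The 14 JAK-STAT and NF-kB signal genes had a median log2 fold change of -0.01, 0 of them at an unadjusted edgeR p under 0.05, and Stat3 differed by -0.03 (SE 0.10, edgeR adjusted p 0.994). The 14 feedback genes, which the same factors induce, also had a median of -0.01 and 0 at that p. Of these feedback genes 7 were positive and 7 negative. Socs3, the STAT3 target that limits interleukin-6 signalling, had a log2 fold change of -0.05 (SE 0.56). It stood at 9.39, 7.50 and 4.74 CPM in knockout-labelled and 7.18, 12.5 and 2.73 CPM in wild type livers. Socs1, the feedback gene with the smallest edgeR p, had 0.80 (SE 0.44), at no more than 0.814 CPM in any library. Of 12 tested transcription factors Creb3l3, which drives acute phase genes under endoplasmic reticulum stress, was the only one at an unadjusted edgeR p under 0.05, against 2.95% of all genes higher. It had 309.1, 313.2 and 302.6 CPM in knockout-labelled and 225.2, 272.4 and 244.7 CPM in wild type livers (log2 fold change 0.32, SE 0.10), which no longer reached that p with library totals or in log2(TPM + 1). Cebpb had 0.46 (SE 0.30), with wild type replicate 1 the lowest at 63.0 CPM.

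**Figure D5:**
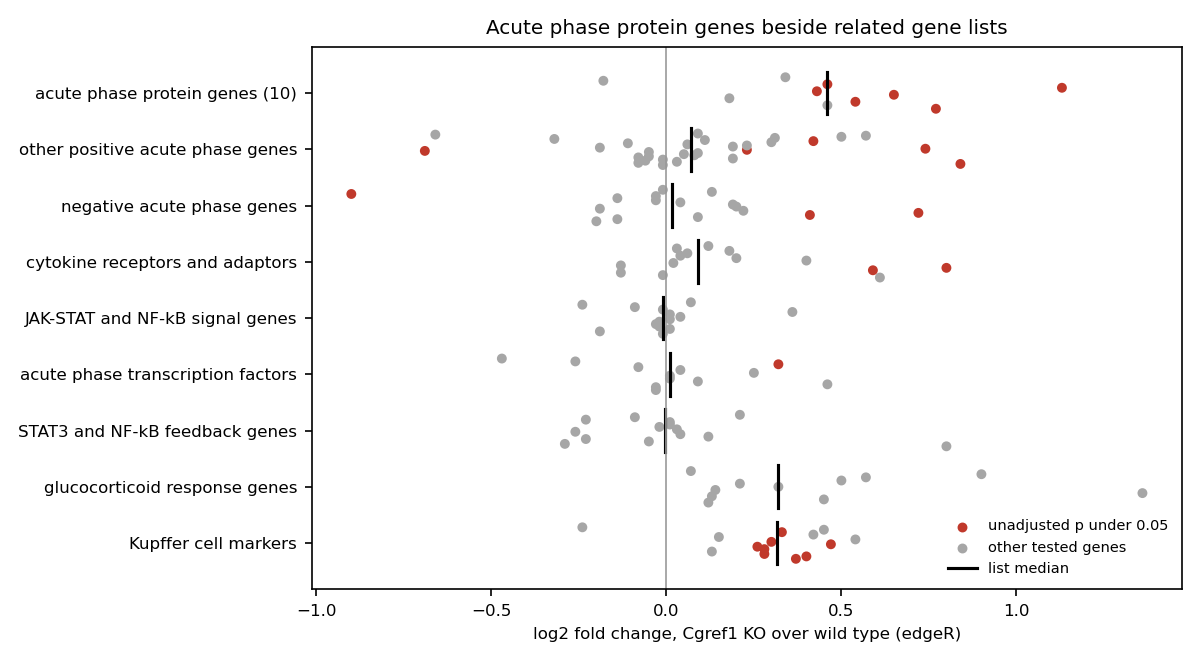
Log2 fold changes (Cgref1 KO over wild type, edgeR) of the 10 acute phase protein genes and the tested genes of related lists, 1 dot a gene, red at an unadjusted p under 0.05, with the list median as a black line. The median is 0.46 for the 10 genes, 0.07 for other positive and 0.02 for negative acute phase genes, and -0.01 for signal and feedback genes.

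Genes of other lists stood in the same direction as most members. All 11 glucocorticoid response genes had positive log2 fold changes (median 0.32), or 10 of 11 with library totals and in log2(TPM + 1), and 0 of them were at an unadjusted edgeR p under 0.05. Most of them were lowest in wild type replicate 1, and several were highest in a wild type library. In CPM the groups of 1 did not overlap with the knockout-labelled higher, against 6.19% of all genes. The list summed to 3252, 3250 and 4648 CPM in knockout-labelled and 1047, 1940 and 4084 CPM in wild type replicates 1, 2 and 3. Pck1 and Tat gave 2157 and 885.2 of the 3252 CPM in knockout-labelled replicate 1. Wild type replicate 1, lowest in this sum, was lowest for Saa1, Saa4, Lcn2 and Hp, against 24.1% of all genes. Wild type replicate 3, at 4084 CPM in this sum, was lowest for Orm1, Orm2, Serpina3n and Fgl1, against 16.6% of all genes. Of the 14 Kupffer cell markers 13 were positive (median 0.32) and 8 were higher at an unadjusted edgeR p under 0.05, against 2.95% of all genes. With library totals 3 were higher, against 1.25% of all genes. In log2(TPM + 1) 2 were higher and 1 lower, against 0.939% of all genes higher and 1047 of 12033 genes lower. Clec4f stood at 62.2 ± 0.505 CPM in knockout-labelled and 48.1 ± 3.11 CPM in wild type livers (SD, n = 3). The part of glucocorticoid response or of Kupffer cells in the members' values was not tested.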

How the data were processed

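Messenger RNA of 3 livers labelled Cgref1 knockout and 3 labelled wild type was sequenced, and the submitters' processing notes name HISAT, Bowtie2, RSEM and DESeq2 without versions or settings. No label or header gives strand handling or read length. The authors deposited expected counts, which were not normalized, and FPKM and TPM values per gene and library, per the file headers. The deposited table also holds the authors' log2 fold change, p-value and q-value from DESeq2; values from it are credited to that table in the text. The columns of 6 group means and of 9 comparisons of single libraries were not used. The chromosome accessions are those of GRCm38, and 15619 of 15622 genes matched by symbol lay on the same chromosome in GENCODE M21.

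Expected counts were rounded, filtered by edgeR's filterByExpr (minimum count 10) and scaled by TMM factors of 0.955 to 1.05. All genes were tested in edgeR 4.0.16 under R 4.3.3. The robust quasi-likelihood test compared the groups, no block was used, and p-values were adjusted by Benjamini-Hochberg at a threshold of 0.05. Confidence intervals are at 95%. The procedure was first tested on simulated data with 3 libraries in each group. It recovered 36% of 50 genes changed 1.5-fold and 78% of 50 changed 2-fold, so most changes of 1.5-fold were missed there. That run also held 50 genes changed 3-fold and 50 changed 4-fold. The same run gave 17 false calls beside these recovered genes, with 11905 genes tested. Their share of all calls was thus larger than their share of the genes tested. There were 0 calls when no gene was changed. Adjusted p-values depend on how many of the genes tested together are changed. Recovery with as few calls as in the liver libraries, 1 of 12033 genes, was not tested, so these percentages hold for that run only. The members, the gene lists and the alternatives were chosen with earlier results of these data known. All members are named; of each other list, the members past the threshold, the 2 with the smallest p and the 2 with the highest mean may be named, and 5 genes by likeness to Saa1 and Saa2. Saa3, Orm3, the other Serpina3 genes, Il6, Il6ra, Serpina7, Stat3, Socs3, Cebpb, Ly6g, Tff3 and the intestinal markers listed at 0 fall outside this rule. Their values were known when they were picked.

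Processing alternatives changed the scaling (DESeq2 size factors, library totals or upper-quartile factors, and acute phase genes left out of it), the filter (none, or a mean CPM of 5 or more), the tool (DESeq2 1.42.0 or limma-voom, limma 3.58.1) and the unit (limma-trend for log2 FPKM and log2 TPM, pseudocount 1 or 0.1). Others used replicate numbers as a block, summed the paralogs or left libraries out.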

Additional observations from a re-analysis of the deposited data

How the results depend on the processing

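Of the member fold changes, 2 reversed under an alternative: Saa2 was -0.06 on the log2 scale without knockout-labelled replicate 3 (-0.06 to 0.76 without single libraries), and Apcs was 0.09 without wild type replicates 1 and 3 together. Genes called numbered 1, and 0 with a mean of at least 5 CPM or without wild type replicates 1 and 3 together, 28 with DESeq2, 34 with the replicate number as a block, and 1 to 5 without single libraries, 5 being without knockout-labelled replicate 1. With the block, 1 member was called in place of 0, Lcn2 with an edgeR adjusted p of 0.0492 (0.0492 to 1 over 19 alternatives). Deviations of same-numbered libraries correlated at 0.32, 0.07 and 0.39, and every library correlated best with its own number, but the labels do not pair the samples. Each deviation was taken from the mean of its own group, so these correlations depend on each other and cannot settle a pairing. Members higher at an unadjusted p under 0.05 numbered 6 (2.95% of all genes), and 3 without wild type replicates 1 and 3 together (1.25%), in log2(TPM + 1) (0.939%) and in log2(TPM + 0.1) (0.922%). Members whose groups did not overlap numbered 5 (6.19% of all genes) and 2 in TPM (1.44%). Leaving libraries out can only keep or raise this count, which was 5 to 8 without single libraries (9.47% to 12.4%) and 8 without wild type replicates 1 and 3 together (24.0%). Wild type replicates 1 and 3 held the larger intestinal marker sums, 135.4 and 139.7 CPM, against 77.3 CPM in wild type replicate 2. Each was also the lowest library for 4 members, against 24.1% and 16.6% of all genes. A link between these was not tested. Leaving out wild type replicates 1 and 3 together assumes that the lone wild type library varies like the others. The cause of these changes was not tested. At a mean of at least 5 CPM Lcn2 was not among the genes tested. The members' median stayed between 0.31 and 0.62 over the 20 alternatives. Lcn2 was counted 36 to 154 times a library, the lowest of the members, which limits its precision.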
